A study of Drosophila melanogaster with 40 samples.

Results

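Commissureless, Robo and Slit genes set which axons cross the midline of the fly nerve cord. The 7 genes described here, comm, comm2, comm3, robo1, robo2, robo3 and sli, were taken by symbol from the 17784 features of the count table. They were chosen by gene name, and the set was selected on the CPM of comm2 (counts per 1000000 reads), which were lower after chronic feeding in each drug arm. The values of comm2 between schedules are therefore given as a description, with no test. The question put to the other 6 was whether they moved with comm2 between schedules and drugs.

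The samples were 40 pools of 13 to 21 heads of 10-day-old wild-type male Drosophila melanogaster (Oregon Red, w+), from which poly-A RNA was sequenced. Acute feeding lasted 24 h and chronic feeding lasted 10 days, which was the whole adult life. The drugs were 2-AAPA, an inhibitor of thioredoxin reductase and glutathione reductase, at 10 µM, and mitoQ, an antioxidant directed to mitochondria, at 100 µM. The controls received 0.2% DMSO. There were 7 pools of acute DMSO, 6 of acute 2-AAPA, 7 of acute mitoQ, 7 of chronic DMSO, 7 of chronic 2-AAPA and 6 of chronic mitoQ. The study removed outliers and lists 6 chronic DMSO pools in its own comparison, without naming the pool left out. Acute flies lived on cornmeal-molasses food before they were moved to the instant medium that carried the drug or DMSO, and chronic flies lived on that medium throughout, so food base and length of feeding cannot be told apart. The study lists ethanol as the solvent of mitoQ, and with no ethanol group the solvent and mitoQ cannot be told apart. The labels do not say whether pools of a group came from separate cultures, so the p-values below measure the spread between pools.

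In the embryonic nerve cord, Slit is a repellent secreted by cells of the midline, and Robo receptors on the growth cone detect it. Commissureless diverts newly made Robo1 from the axon surface to the endosome, and axons that cross the midline express it transiently. The Robo receptors also sort axons into tracts at different distances from the midline, and after development members of the pathway are expressed in the adult nervous system.

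Total counts were between 24318573 and 30104079 a library, and all 7 genes were counted in every library and passed the filter on low counts. The lowest count of comm2 was 181 and the highest was 873. The fewest reads of any of the genes in any library were 122, for robo2. The neuronal genes elav and nSyb, the glial gene repo and the photoreceptor gene ninaE were detected in all 40 pools, as the label of heads requires. Chronic DMSO replicate 7 stood apart, with 16259 features detected against at most 14459 elsewhere and 1678 CPM over 12 genes of the male reproductive tract, against at most 397. Mitochondrial transcripts made up 4.37% of the reads of chronic 2-AAPA replicate 6, against at most 0.439% elsewhere. Acute DMSO replicate 5 was the lowest library of all 40 for comm, robo1, robo2, robo3 and sli. Results are therefore also given without these 3 libraries.

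The 3 Commissureless genes lie on one strand of chromosome 3L (BDGP6). comm2 (FBgn0041160) covers 15697594 to 15699850 on the minus strand, and it has 2 exons with 1516 bases in all. comm (FBgn0010105), at 15721511 to 15728430, is separated from comm2 by 21660 bases, and comm3 (FBgn0259236), at 15613184 to 15647762, by 49831 bases. The table holds 2 genes between comm2 and comm. By order of start position 18 come between comm3 and comm2, and these can include genes that start within the span of comm3. robo2 (FBgn0002543, 2L, 1380086 to 1420453, minus strand) and robo3 (FBgn0041097, 2L, 1256417 to 1296596, plus strand) are neighbours on another chromosome arm, and robo1 (FBgn0005631, 22692524 to 22700970) and sli (FBgn0264089, 15869495 to 15922118) lie on the minus strand of 2R. Of the exon bases of robo2, 1422 are shared with an antisense gene and 1241 with a noncoding gene on its own strand. Since the strand setting of the counting is not stated, the level of robo2 is uncertain. comm and comm2 overlap no other gene, and the genes that overlap comm3 share none of its exon bases.

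comm2 encodes a paralog of Commissureless. Its level, in CPM after scaling of the libraries by TMM (trimmed mean of M values), was near 22 in acute pools and near 9 in chronic pools. The lowest, median and highest values were 16.3, 22.2 and 25.1 in acute DMSO, 19.4, 24.3 and 34.9 in acute 2-AAPA and 16.9, 21.6 and 27.2 in acute mitoQ. In chronic DMSO they were 7.29, 8.11 and 19.4, in chronic 2-AAPA 7.90, 9.24 and 11.2, and in chronic mitoQ 7.14, 9.96 and 16.2. The acute pools of each arm thus lay high and the chronic pools low, and 19 of the 20 chronic pools were below the lowest of the 20 acute pools. The exception was chronic DMSO replicate 1 at 19.4 CPM. Because of it the groups overlapped in the DMSO arm, whereas they did not overlap in the 2-AAPA and mitoQ arms. Of all 11477 features tested, 0.209% were lower in chronic pools with no overlap in the DMSO arm, 2.27% in the 2-AAPA arm and 0.523% in the mitoQ arm. In bulk heads, fewer cells that express a gene and less RNA in each cell cannot be told apart.

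The log2 fold change of comm2 between chronic and acute feeding was -1.17 over all arms, a level 2.25-fold lower. It was -1.08 in the DMSO arm, -1.44 in the 2-AAPA arm and -1.0 in the mitoQ arm. Of the 11477 features, 29 including comm2 had a log2 fold change as low as this over all arms. Without the 3 libraries that stood apart the value was -1.16. The coefficient of variation of comm2 was 44.5% in chronic against 13.7% in acute DMSO, 12.9% against 22.3% in the 2-AAPA arm and 31.4% against 16.3% in the mitoQ arm, so the spread was the wider in chronic pools in the DMSO and mitoQ arms and in acute pools in the 2-AAPA arm. In chronic DMSO it was 22.9% without replicate 1.

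**Figure D1:**
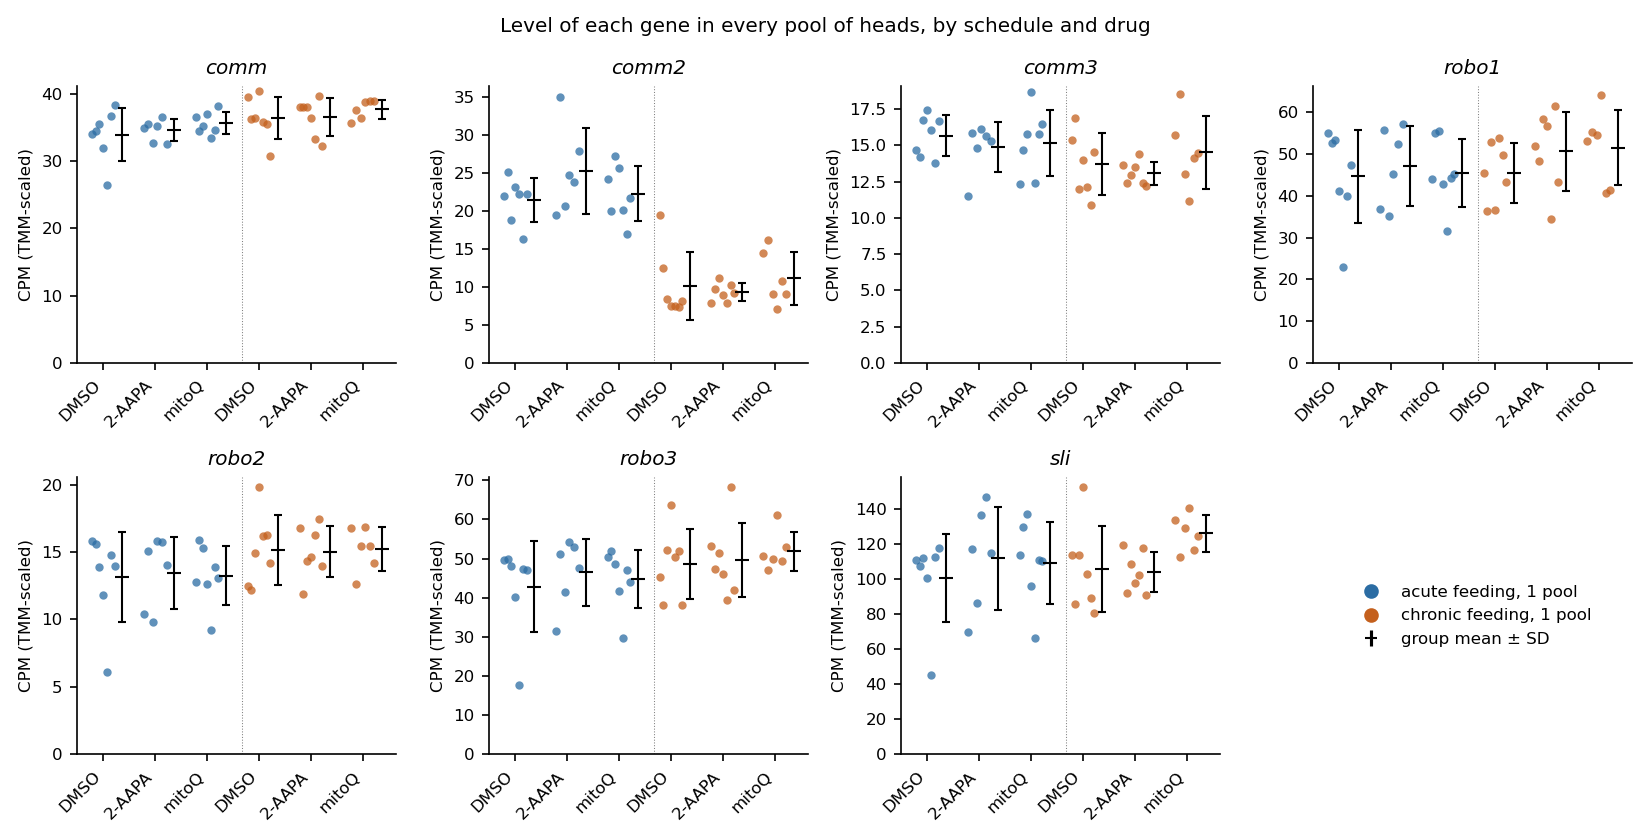
Level of each gene in CPM (TMM-scaled, axes from 0) in every pool, by drug, for acute feeding (blue points) and chronic feeding (orange points). Black bars give the group mean ± SD. comm2 had medians of 22.2 CPM in the 20 acute and 9.05 CPM in the 20 chronic pools, while the chronic and acute pools of the other 6 genes overlapped in each arm.

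Neither paralog showed a change of this size. comm, the founding member of the family, was the steadiest of the 7 genes, with a standard deviation of 0.11 on the log2 CPM scale within groups against 0.34 for comm2. Its lowest, median and highest levels were 26.4, 35.1 and 38.4 CPM in the acute pools and 30.8, 37.0 and 40.4 CPM in the chronic pools. The groups overlapped, and 17 of the 20 chronic pools were above the acute median. Its log2 fold change was 0.09 (SE, the standard error, 0.04), with an adjusted p of 0.135 by the quasi-likelihood test of edgeR, adjusted over all features by the Benjamini-Hochberg method. Leaving out chronic DMSO replicate 7 moved the adjusted p of comm to 0.0312 at a log2 fold change of 0.11, and leaving out all 3 libraries that stood apart gave 0.0867 at 0.08.

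comm3, the other paralog and the more distant on the chromosome, had levels of 11.5, 15.7 and 18.7 CPM in acute pools and 10.9, 13.6 and 18.6 CPM in chronic pools. The ranges were nearly the same, although 17 of the 20 chronic pools were below the acute median, 7 of 7 in the 2-AAPA arm. The log2 fold change of comm3 was -0.15 (SE 0.06, adjusted p = 0.115, edgeR), with a 95% confidence interval from -0.27 to -0.03. The adjusted p was 0.0405 at a log2 fold change of -0.18 without chronic mitoQ replicate 2, the chronic pool with the highest comm3, and 0.163 without the 3 libraries that stood apart. In the arms taken alone its log2 fold change was -0.19 in DMSO, -0.19 in 2-AAPA and -0.06 in mitoQ.

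The ligand and the receptors did not pass the test either. sli, which encodes the ligand Slit, had levels of 45.4, 112 and 147 CPM in acute pools and 80.8, 113 and 153 CPM in chronic pools. Its log2 fold change was 0.06 (SE 0.10, adjusted p = 0.773, edgeR). robo1, the receptor that Commissureless clears from the axon surface, had 23.0, 45.3 and 57.1 CPM in acute pools and 34.3, 50.8 and 64.2 CPM in chronic pools, with a log2 fold change of 0.10 (SE 0.09, adjusted p = 0.538). For both genes the chronic pools lay within or near the range of the acute pools.

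robo2 and robo3 encode the receptors known for the placing of longitudinal tracts. robo2 had 6.12, 14.0 and 15.9 CPM in acute pools and 11.9, 15.2 and 19.8 CPM in chronic pools, and 8 of the 20 chronic pools were above the highest acute pool. Its log2 fold change was 0.19 (SE 0.08, adjusted p = 0.173, edgeR). robo3 had 17.6, 47.4 and 54.2 CPM in acute pools and 38.1, 50.2 and 68.2 CPM in chronic pools, with a log2 fold change of 0.16 (SE 0.09, adjusted p = 0.298). The lowest acute value of both receptors came from acute DMSO replicate 5, and without the 3 libraries that stood apart their log2 fold changes were 0.14 and 0.11.

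Over all arms 0 of the 6 genes other than comm2 had an adjusted p under 0.05, where 8.64% of all features did, 2.82% higher and 5.82% lower. The count was 1 without chronic DMSO replicate 7, when comm was called, and 1 without chronic mitoQ replicate 2, when comm3 was called. An unadjusted p under 0.05 was reached by 3 of the 6, namely comm, comm3 and robo2, and by 22.3% of all features. In the DMSO, 2-AAPA and mitoQ arms 0 of the 6 were called, against 5.11%, 4.21% and 0.157% of all features, and 0 of the 6 had an unadjusted p under 0.05 in any arm, against 15.3%, 14.4% and 5.21% of all features. The share in the DMSO arm rests on the libraries that stood apart, since 586 features were called with all pools and 87 without those 3. The 95% confidence intervals bound what could have been missed. Over all arms the lowest bound was -0.27, for comm3, and the highest was 0.36, for robo2. Within arms the lowest bound was -0.45, for sli in the 2-AAPA arm, and the highest was 0.56, for sli in the mitoQ arm. The intervals thus excluded a fall of 2-fold, the least that comm2 showed in an arm, for each of the 6 genes in each arm. The log2 fold change of these genes was above that of comm2 by between 1.02 for comm3 and 1.36 for robo2.

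**Figure D2:**
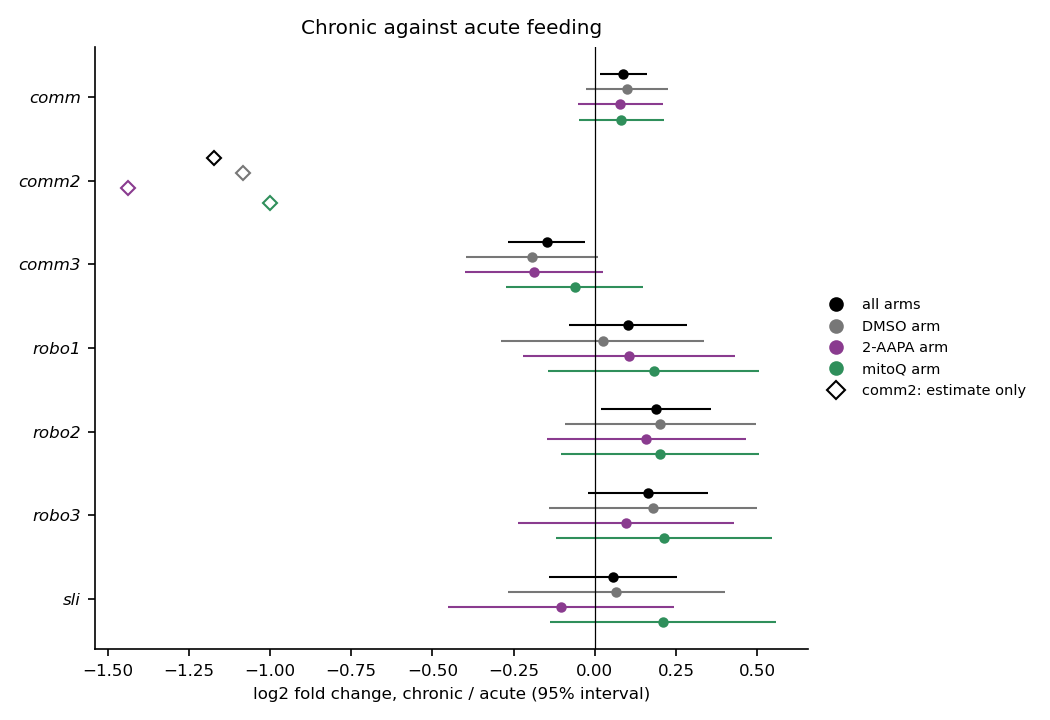
Log2 fold change of each gene between chronic and acute feeding (x axis) over all arms and in each drug arm, from edgeR, with the 95% confidence interval as a horizontal bar. For comm2 the estimates alone are drawn, as open diamonds between -1.44 and -1.0, because its fall was the reason for the choice of genes; the other estimates lie between -0.19 and 0.21.

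The order of the 7 genes changed with the schedule through comm2. Levels were compared between genes as CPM per kilobase of the deposited feature length. In acute pools the median was 14.6 for comm2, 14.1 for comm, 11.6 for sli, 6.67 for robo1, 6.40 for robo3, 6.0 for comm3 and 2.25 for robo2. In chronic pools it was 14.8 for comm, 11.8 for sli, 7.48 for robo1, 6.77 for robo3, 5.97 for comm2, 5.19 for comm3 and 2.45 for robo2. comm2 was thus close to comm in acute pools, being the higher of the pair in 12 of 20, and close to robo3 in chronic pools, being the lower in 11 of 20. Neighbours in either order had overlapping ranges except comm3 and robo2. The order depends on the length used. With the longest transcript as length, comm3 (6.61) was above comm2 (5.97) in chronic pools, and robo3 was at 8.32. The log2 ratio of comm to comm2 in the same library ranged from 0.03 to 1.17 in acute pools and from 1.03 to 2.44 in chronic pools.

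No difference between drugs was detected for any of the 7 genes. Adjusted for schedule, 0 of the 7 passed the test over DMSO, 2-AAPA and mitoQ, where 0.00871% of all features did, and their adjusted p-values (edgeR) lay between 0.738 and 0.998. Against DMSO at the same schedule, 0 of 7 were called for acute 2-AAPA (0.0261% of all features), acute mitoQ (0.0%), chronic 2-AAPA (2.13%) and chronic mitoQ (1.82%), and 0 of 7 had an unadjusted p under 0.05 in any of these comparisons, against 5.92%, 1.54%, 10.1% and 8.29% of all features in the same order. The shares for the chronic drugs rest on chronic DMSO replicate 7, without which 0 features were called for either drug. Comparisons at one schedule share their DMSO pools.

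comm2 had the highest estimate of the 7 in acute 2-AAPA, with a log2 fold change of 0.24 and an interval from -0.14 to 0.62. It had the lowest in chronic 2-AAPA, with -0.12 and an interval from -0.49 to 0.25. For mitoQ the estimates of comm2 were 0.06 acutely and 0.14 chronically. The largest estimate of any gene was that of sli in chronic mitoQ, with 0.26 and an interval from -0.09 to 0.60, and the 6 pools of chronic mitoQ, between 113 and 141 CPM, lay inside the range of chronic DMSO, from 80.8 to 153 CPM. Under 8 other processing settings this estimate of sli ranged from 0.06 to 0.26. All 28 intervals were within a 2-fold change, and drug effects inside them were not detectable with these pools. A drug effect that depends on the schedule was tested for the 6 genes other than comm2, and 0 passed, where 0.0% of all features did, with unadjusted p-values (edgeR) of 0.443 or more.

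**Figure D3:**
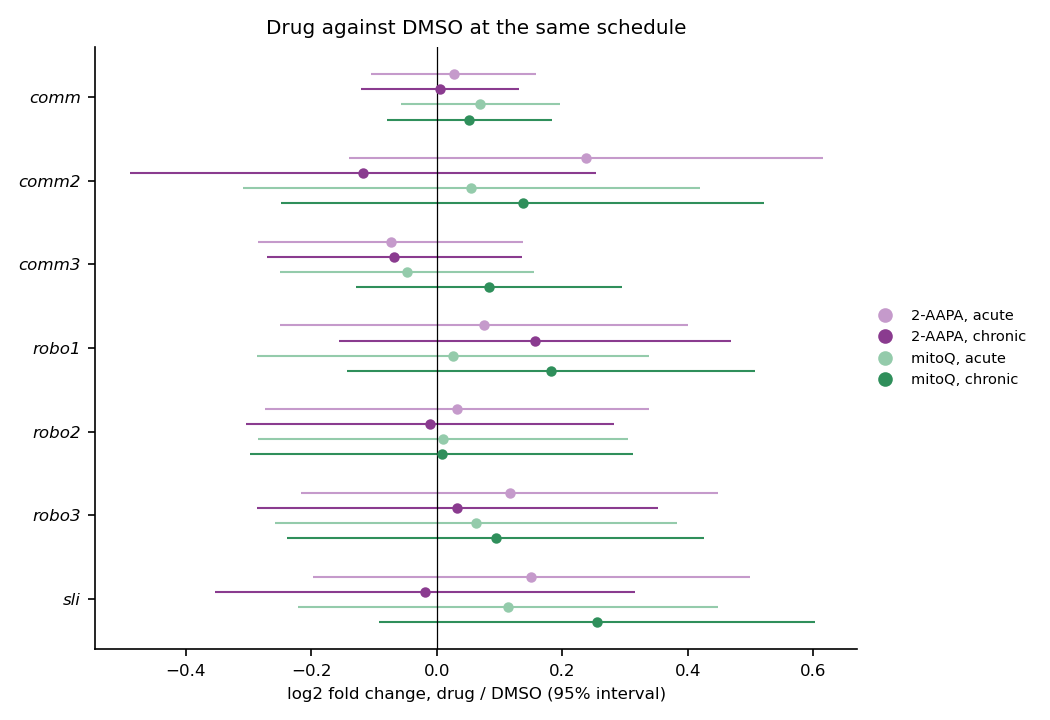
Log2 fold change of each gene between a drug and DMSO at the same schedule (x axis), from edgeR, with the 95% confidence interval as a horizontal bar, for 2-AAPA and mitoQ fed acutely and chronically. All estimates lie between -0.12 and 0.26, and each of the 28 intervals includes 0.

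Within groups the levels of the receptors and sli followed a property of the library. For each library a length trend was computed as Spearman's correlation, over 8573 genes, between feature length and the log2 deviation of a gene from its median over libraries. The trend ranged from -0.758 in acute 2-AAPA replicate 1 to 0.645 in chronic mitoQ replicate 4. A negative value says that long genes were low in that library. The deviations of the 4 long genes from their group means followed it, with Pearson's r of 0.83 for robo1, 0.73 for robo2, 0.73 for robo3 and 0.74 for sli over 40 pools. Spearman's rho was 0.87, 0.77, 0.79 and 0.76, and each permutation p, with pools permuted within groups, was 1e-05, the smallest that 100000 permutations can give (adjusted p = 1.75e-05 over 7 genes). Without the 2 libraries farthest from the median the values of r were 0.81, 0.69, 0.67 and 0.68. The r was 0.85, 0.79, 0.74 and 0.81 in acute pools and 0.79, 0.57, 0.70 and 0.57 in chronic pools, in the same order. The length trend is computed from genes of all lengths, these included, and long genes follow it by its definition. The small p-values are therefore no support for a relation particular to these 4 genes. Whether these 4 followed it more than other genes of their length was not tested.

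For the Commissureless genes, which are shorter, no such relation was detected. Pearson's r with the length trend was 0.30 for comm, 0.05 for comm2 and -0.07 for comm3, and Spearman's rho was 0.22, 0.09 and -0.13. The permutation p of r was 0.0636, 0.767 and 0.704 (adjusted p = 0.0891, 0.767 and 0.767), and that of rho was 0.183, 0.577 and 0.433. Without the 2 farthest libraries r was 0.31, -0.04 and -0.32. The 3 libraries with the lowest trend were acute, and the trend ranged up to 0.573 in acute and 0.645 in chronic pools. With the length trend as a covariate, an alternative added after the data were seen, comm2 had a log2 fold change of -1.18 over all arms, while robo1 moved to 0.04, robo2 to 0.15, robo3 to 0.11 and sli to 0.01. In the mitoQ arm the estimates of robo1, robo2, robo3 and sli, between 0.18 and 0.21 without it, were -0.04, 0.03, 0.02 and 0.02. The direction for robo1 in this arm therefore depended on the covariate.

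**Figure D4:**
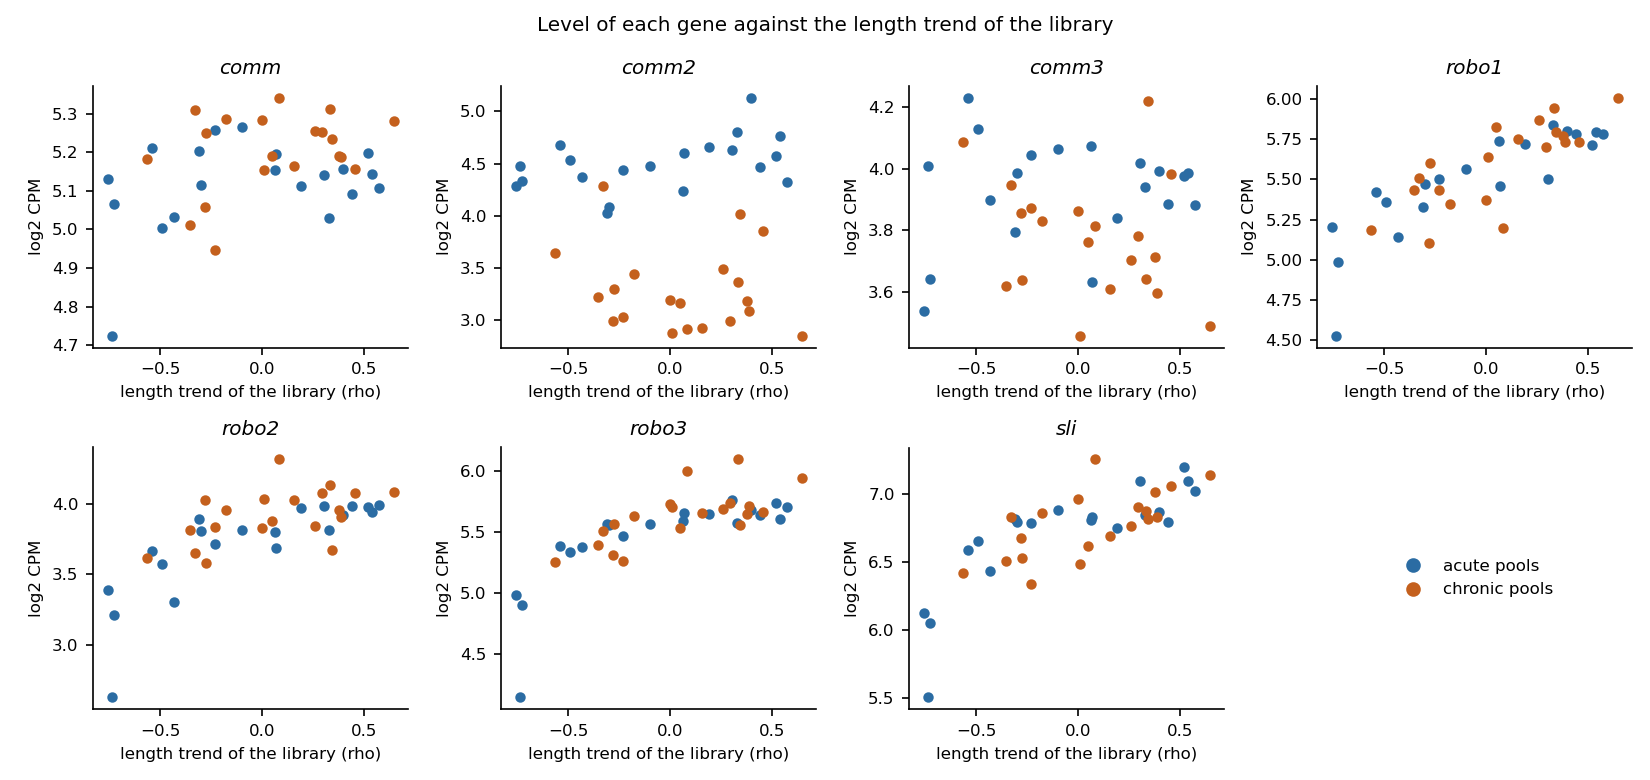
Level of each gene in log2 CPM (y axis) against the length trend of the library (x axis, Spearman's rho between feature length and deviation over 8573 genes), with acute pools in blue and chronic pools in orange. robo1, robo2, robo3 and sli rise with the trend in both sets of pools, and comm2 separates acute from chronic pools along the whole axis except for 1 chronic pool.

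Pools with high comm2 for their group tended to have high comm3. Over 40 pools the deviations of the 2 genes from their group means had a Pearson's r of 0.55 (permutation p = 0.00162, adjusted p = 0.00972 over 6 genes) and a Spearman's rho of 0.50 (permutation p = 0.00373, adjusted p = 0.0224). Without chronic DMSO replicate 1 and chronic mitoQ replicate 2, the 2 libraries farthest from the median of comm2, r was 0.49. It was 0.37 in acute and 0.67 in chronic pools. Chronic mitoQ replicate 2 held the highest level of its group for both genes, 16.2 CPM for comm2 and 18.6 CPM for comm3. For comm, robo1, robo2, robo3 and sli, r with comm2 lay between -0.16 and 0.14 and rho between -0.11 and 0.18, with permutation p-values of 0.277 or more (adjusted p of 0.751 or more). Without the 2 farthest libraries these values of r lay between -0.04 and 0.14. In chronic pools alone robo2 had an r of -0.59 with comm2, against 0.19 in acute pools, and the difference was not tested. The share of all features with an r as high as that of comm3 was not computed. Whether the relation is particular to the paralogs was therefore not tested.

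**Figure D5:**
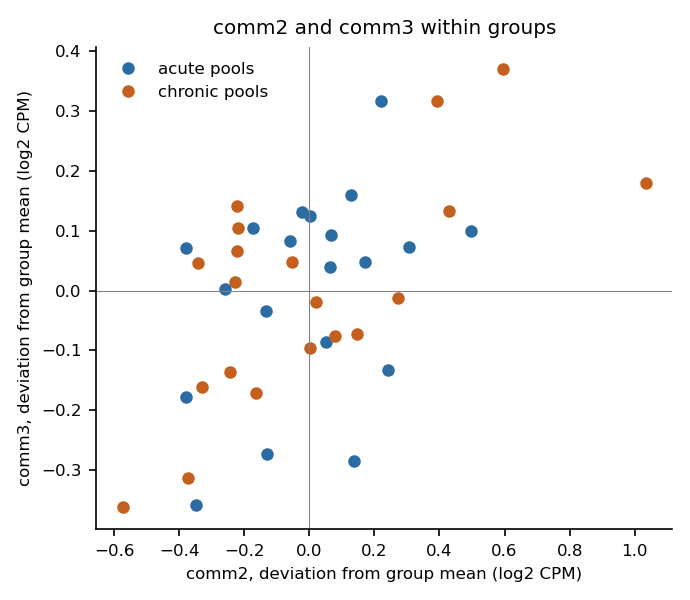
Deviation of comm3 (y axis) against that of comm2 (x axis) from the mean of the group, in log2 CPM, for the 20 acute pools (blue) and the 20 chronic pools (orange). Pools with positive deviations of comm2 tend to have positive deviations of comm3, with r = 0.55 over the 40 pools.

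The features with the pattern most like comm2 over the 40 pools, ranked by Pearson's r of log2 CPM, were Ugt37B1 (r = 0.91), Cyp309a2 (0.89), Cyp12d1-p (0.87), Cyp28d1 (0.86) and Galk (0.86). Ugt37B1 is a UDP-glycosyltransferase, the next 3 are cytochrome P450 enzymes and Galk is galactokinase. This likeness holds the difference between schedules that chose comm2, and within groups the r of the deviations lay between 0.53 and 0.61. The r of 0.55 that comm3 had with comm2 within groups lies in that range. The median of Ugt37B1 was 14.9 CPM in acute and 6.46 CPM in chronic pools, and that of Cyp12d1-p was 22.5 and 9.35 CPM. In the same ranking comm3 was at place 403 (r = 0.58), and comm, robo1, robo2, robo3 and sli had negative values between -0.38 and -0.05.

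Of the 3 genes on each side of comm2 on the chromosome, comm and Pgant8 passed the filter on low counts. Pgant8 (FBgn0036529), on the plus strand, encodes a GalNAc transferase that starts the glycosylation of proteins, and it lies at 15683872 to 15686598 on 3L, 10996 bases from comm2. Its lowest, median and highest levels were 2.74, 4.14 and 6.47 CPM in acute pools and 1.03, 2.32 and 4.35 CPM in chronic pools. Pgant8 fell between schedules, with a log2 fold change of -0.78 (SE 0.12, adjusted p = 2.23e-05, edgeR). Its r with comm2 over the 40 pools was 0.85, which again holds the difference between schedules that chose comm2. Whether Pgant8 followed comm2 within groups was not tested. The end of Pgant8 overlaps CG34452 on the other strand, which had at most 11 reads in a library. The other 3 genes, CG34451, CG42571 and CG42570, had medians of 4, 0 and 0 reads.

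Other genes of the pathway and of axon guidance were described from 3 lists. The lists were drawn up with earlier results of these data known, so their counts are a description. None of the 27 partners of Robo and Slit signalling, among them the adaptor dock, the kinase Abl and the syndecan Sdc, passed the test between schedules, where 8.64% of all features did, and 4 had an unadjusted p under 0.05, where 22.3% of all features did. Their median log2 fold change was 0.08, against 0.01 over all features. With DESeq2, 1 of them, ena, an actin regulator that binds Robo1 (chosen for mention after its values were seen), was called at a log2 fold change of 0.28 (adjusted p = 0.0490). With edgeR, ena was also called with the length trend as covariate, at 0.21 (adjusted p = 0.0342), and without any of 4 single libraries. Of 39 measured genes of other guidance ligands and receptors 3 rose and 0 fell, with a median of 0.10, while 2.82% of all features rose and 5.82% fell. They were trn, a leucine-rich repeat receptor (0.21, SE 0.04, adjusted p = 0.00101, edgeR), beat-Ia, which loosens motor axon fascicles (0.17, 0.05 and 0.0302), and Fas3, a homophilic adhesion molecule (0.20, 0.06 and 0.0318). beat-Ia lost its call without the 3 libraries that stood apart (adjusted p = 0.0562), and 1 further gene, dnt, a Wnt receptor of the Ryk family that was also chosen after its values were seen, was then called at -0.18 (adjusted p = 0.0117).

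Of 13 measured transcription factors known from the midline, motor axons or the control of Robo genes, 3 rose and 0 fell, with a median of 0.13, beside the same 2.82% and 5.82% of all features. This list too was drawn up with earlier results of these data known. Its count and the p-values of its genes are therefore a description. The largest change in the list was that of Dr, a homeobox gene of dorsal neural columns, which went opposite to comm2. Its lowest, median and highest levels were 4.03, 7.86 and 13.8 CPM in acute pools and 10.8, 17.0 and 29.0 CPM in chronic pools. The log2 fold change of Dr was 1.14 (SE 0.12, adjusted p = 5.12e-09, edgeR), and it was 1.01, 1.14 and 1.29 in the DMSO, 2-AAPA and mitoQ arms (adjusted p = 0.00218, 0.00057 and 0.00126). The others were D, a Sox gene (0.20, adjusted p = 0.0117), and Lim3, a LIM homeobox gene of motor neurons (0.13, adjusted p = 0.0218). In the 4 comparisons of a drug with DMSO, 0 genes of the 3 lists were called. Of all features, 0.0261% and 0.0% were called for acute 2-AAPA and mitoQ, and 2.13% and 1.82% for chronic 2-AAPA and mitoQ. The chronic shares rest on chronic DMSO replicate 7, as given above.

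Some markers of cell types were called between schedules as well, where 2.82% of all features were called higher and 5.82% lower. In lists this short, having no gene called is near these shares. Of 7 measured fat body markers 3 fell, namely Lsp2 (log2 fold change -1.88, adjusted p = 5.65e-06, edgeR), Lsd-1 (-0.33, adjusted p = 0.0356) and Ilp6 (-0.23, adjusted p = 0.0259). The summed level of the list was 1775 to 7110 CPM (median 3298) in acute and 873 to 4564 CPM (median 3023) in chronic pools. Fbp2 was at 0 in 5 of the 40 libraries and Fbp1 had at most 15 reads. Of 7 hemocyte markers srp and NimC1 fell (-0.33 and -0.42, adjusted p = 0.0104 and 0.0443), and He was at 0 in 30 libraries. The hemocyte sum was 270 to 467 CPM (median 381) in acute and 304 to 420 CPM (median 378) in chronic pools. Of 8 glial markers loco rose (0.21, adjusted p = 0.00146), with sums of 904 to 1766 CPM and 1364 to 2075 CPM. None of 8 neuronal, 8 photoreceptor and 6 muscle markers was called. Median sums in acute and chronic pools were 2137 and 2373 CPM for neurons and 2625 and 2932 CPM for muscle. For photoreceptors they were 69979 and 70242 CPM. An unadjusted p under 0.05 (edgeR) was reached by 4 of 6 muscle, 2 of 8 neuronal and 1 of 8 photoreceptor markers. It was reached by 3 each of 7 fat body, 7 hemocyte and 8 glial markers, and by 22.3% of all features. The part of these cell types in the values of comm2, Pgant8 and Dr was not tested.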

How the data were processed

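The deposited table holds whole-number counts that the authors made with featureCounts for genes and TEcount for transposable element families after the reads were mapped to BDGP6 in an nf-core pipeline; reads with many mapping positions were kept, and the strand setting of the counting is not given in the sources used here. Per the file headers, the table also gives the length of each feature in bases. The 40 libraries were grouped by their labels.

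Counts were filtered (filterByExpr, minimum count 10; 11477 features left), scaled by TMM and fitted with edgeR's quasi-likelihood test (edgeR 4.0.16, R 4.3.3). Schedule over all arms and drug were tested in an additive model, and arms, drugs at one schedule and the interaction in a model of 6 group means with 1 shared spread. Adjusted p-values (Benjamini-Hochberg, threshold 0.05) are over all features, and intervals are 95%. Permutations were run in NumPy 2.4.6. Members, lists and alternatives were chosen with earlier results of these data known. From each list at most 4 called genes were named, beside 5 genes most like comm2 and its 3 neighbours on each side. DESeq2 1.42.0, limma 3.58.1 and other alternatives are in the closing section. Positions come from Ensembl's BDGP6 annotation, with which deposited lengths were equal for 97.6% of genes. The fits were tested on simulated counts with the same spread for all features. The simulation had no libraries that stand apart and no length trend, unlike these data.

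Checked as pairs, same-numbered pools did not deviate together: of 96 pairs across groups 34 had a correlation over 0.1, and the median was -0.03. lola and Sema5c were not analysed here.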

Additional observations from a re-analysis of the deposited data

Results flagged for a closer look

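In 42 sets of 6 or 7 pools, 1 for each of the 7 genes in each group, the lowest or highest pool was tested for a gap to the others with Dixon's ratio, and 7 were flagged. Chance flags about 1 in 20. All 7 were low values, on the log2 CPM scale. Acute DMSO replicate 5 was flagged for robo1 at 4.53, where the next pool was at 5.33, for robo2 at 2.63 (next 3.58), for robo3 at 4.14 (next 5.33) and for sli at 5.51 (next 6.65). Acute mitoQ replicate 5 was flagged for robo2 at 3.21 (next 3.67) and robo3 at 4.90 (next 5.38). These 2 libraries had low length trends, at -0.737 and -0.728, and the part of the trend in these values was not tested. Acute 2-AAPA replicate 1 was flagged for comm3 at 3.54 (next 3.90) and had the lowest length trend, at -0.758. No pool was flagged for comm or comm2.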

How the results depend on the processing

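The 47 results had 1346 values under alternatives (DESeq2, its size factors, limma on cyclic LOESS values, no filter, the 2 groups alone, a replicate block, single libraries left out, and 3 settings added after the data were seen: without acute DMSO replicate 5, without 3 libraries, length trend as covariate). No direction reversed among these results, in which comm, comm3, the receptors and sli are taken over all arms and not arm by arm, and 1323 values kept their side of the threshold or their size. Within single arms some uncalled estimates near 0 changed sign: in the DMSO arm, without acute DMSO replicate 5, robo1 went from 0.02 to -0.08 and sli from 0.07 to -0.05, robo1 in the mitoQ arm did so with the length trend as covariate (-0.04), and robo1 and sli in the DMSO arm and robo3 in the 2-AAPA arm did so without the 3 libraries. The number of the 6 genes called between schedules over all arms was 0 to 1 with single libraries left out; in the other comparisons it was 0 in each setting. comm2 ranged from -1.25 to -1.13 over all arms with single libraries left out. With the longest transcript as length, the median level of comm3 was 7.07 CPM per kilobase in place of 5.55 and that of robo3 8.02 in place of 6.52. The order of robo1 and robo3 therefore depends on the length used. So does the place of comm3, which was then above comm2 in chronic pools (6.61 against 5.97) and above robo1 in acute pools (7.65 against 6.76). beat-Ia lost its call with limma (adjusted p = 0.0681) and without any of 5 single libraries, and Fas3 without any of 3. Partners of Robo and Slit signalling numbered up to 2 called, ena and Mtl, and guidance genes 2 to 5, with single libraries left out. Replicate numbers are shared between groups but did not pair the pools. With the replicate block, comm2 was -1.20, and 0 of the other 6 genes were called.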
